A study of Mus musculus with 6 samples.

Results

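Enteroendocrine cells that make peptide hormones were taken from 6 droplet single-cell RNA libraries of mouse small-intestinal epithelium. A barcode was a member when it had at least 500 genes and at most 25% mitochondrial UMIs (unique molecular identifiers, which count RNA molecules), when Cck, Gcg, Gip, Ghrl, Sst, Nts, Pyy and Sct together reached 50 UMIs per 10000, and when Tph1 had under 2 UMIs. Tph1 encodes the serotonin-synthesis enzyme of enterochromaffin cells, so the last limit separates the peptide-hormone cells from those. The rule found 285 barcodes among 26045 that passed the gene and mitochondrial limits, which is 1.09%.

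The libraries fall into 3 labelled Itgb7 KO (Itgb7-/-) and 3 labelled wild-type, all from 8-week C57BL/6J mice and made with a 3′ kit. Itgb7 encodes the β7 integrin subunit that pairs with αE on T cells of the epithelium, and the series title concerns such T cells and intestinal stem cell fate. The labels name neither the knockout allele nor the gut segment, and do not say whether libraries of a genotype came from separate animals, so p-values measure the spread between libraries only. Itgb7 was at 0, 3.23 and 0 UMIs per 1000000 (CPM) in the cells of the Itgb7 KO libraries, against 3.50, 0 and 3.01 CPM in those of the wild-type libraries. These levels are single UMIs or none, and a 3′ tag can lie outside a deletion, so Itgb7 in members does not check the genotype label. In all other barcodes Itgb7 had 18, 31 and 12 UMIs in the Itgb7 KO libraries (0.291, 0.541 and 0.428 CPM). It had 2, 8 and 1 UMIs there in the wild-type libraries (0.0264, 0.127 and 0.0158 CPM). Itgb7 RNA was thus higher in every library labelled Itgb7 KO. The reason was not tested, and the labels are used as given.

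Enteroendocrine cells are scattered hormone-secreting cells of the gut lining. They arise from crypt progenitors that pass through a Neurog3-positive stage, store prohormones in dense-core granules with granins, cut them with prohormone convertases, and release them when receptors and transporters sense nutrients. Cholecystokinin (Cck) acts on gallbladder and pancreas, proglucagon (Gcg) gives the incretin GLP-1, glucose-dependent insulinotropic polypeptide (Gip) is the other incretin, ghrelin (Ghrl) stimulates feeding, somatostatin (Sst) inhibits release of other hormones, secretin (Sct) drives bicarbonate secretion, and neurotensin (Nts) and peptide YY (Pyy) slow gut motility.

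One library stood apart before any hormone was considered. Wild-type replicate 1 had no barcode under 13621 UMIs, against lowest values of 7754, 2729 and 1417 UMIs in Itgb7 KO replicates 1, 2 and 3 and 2946 and 2651 UMIs in wild-type replicates 2 and 3. Wild-type replicate 1 gave 8 members, with a median of 241 hormone UMIs per 10000, while the medians were 1356, 1032 and 1273 in the Itgb7 KO libraries and 1435 and 1298 in wild-type replicates 2 and 3. Members had a median of 11638, 4813 and 3669 UMIs in the Itgb7 KO libraries, against 33428, 6492 and 6393 in the wild-type libraries. The 99th percentile of the hormone sum in all other barcodes lay between 13.5 and 23.9 per 10000, well under the limit of 50. Doublets were scored with Scrublet and not removed, and 49 members fell in the highest-scoring barcodes. The sequence of 9 member barcodes also occurred in another library.

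Members formed a larger share of barcodes in the libraries labelled Itgb7 KO on average, but the groups overlapped. The 24, 99 and 70 members of the Itgb7 KO libraries made up 0.860%, 1.73% and 1.53% of barcodes (exact 95% binomial intervals 0.552 to 1.28%, 1.41 to 2.1% and 1.20 to 1.93%). The 8, 32 and 52 members of the wild-type libraries made up 0.288%, 0.634% and 1.01% (intervals 0.125 to 0.568%, 0.434 to 0.894% and 0.757 to 1.33%, for counting error only). Itgb7 KO replicate 1 lay below wild-type replicate 3, and wild-type replicate 1 was lowest of all. By replicate number, a pairing that the labels do not state, the Itgb7 KO library had the higher share in each of the 3 pairs. With these pairs as a block the exact permutation p was 0.25, the smallest possible. The difference of 0.729 percentage points gave an exact two-sided permutation p of 0.2, where 3 libraries against 3 can reach 0.1 at the smallest. Without wild-type replicate 1 it was 0.551 points (exact permutation p = 0.3).

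The share depended on how deep a barcode had to be. With every barcode held to at least 13621 UMIs, members made up 0.332%, 0.759% and 0% of barcodes in the Itgb7 KO libraries, against 0.288%, 0.192% and 0.0595% in the wild-type libraries, and the difference fell to 0.184 points (exact permutation p = 0.6). These shares rest on 8, 7 and 0 members in the Itgb7 KO libraries and 8, 3 and 1 in the wild-type libraries. The limit left out 13.6%, 83.9% and 99.2% of barcodes in the Itgb7 KO libraries and 0%, 69.1% and 67.3% in the wild-type libraries. The 0% of Itgb7 KO replicate 3 therefore comes from few barcodes. With at least 5000 UMIs, a limit chosen after seeing the data, the difference was 0.138 points (exact permutation p = 0.7). Thinning each barcode to 1400 UMIs, which every library's barcodes reached, left it at 0.772 points (exact permutation p = 0.2). Whether the depth limits of the libraries set the difference was not tested beyond these values.

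**Figure D1:**
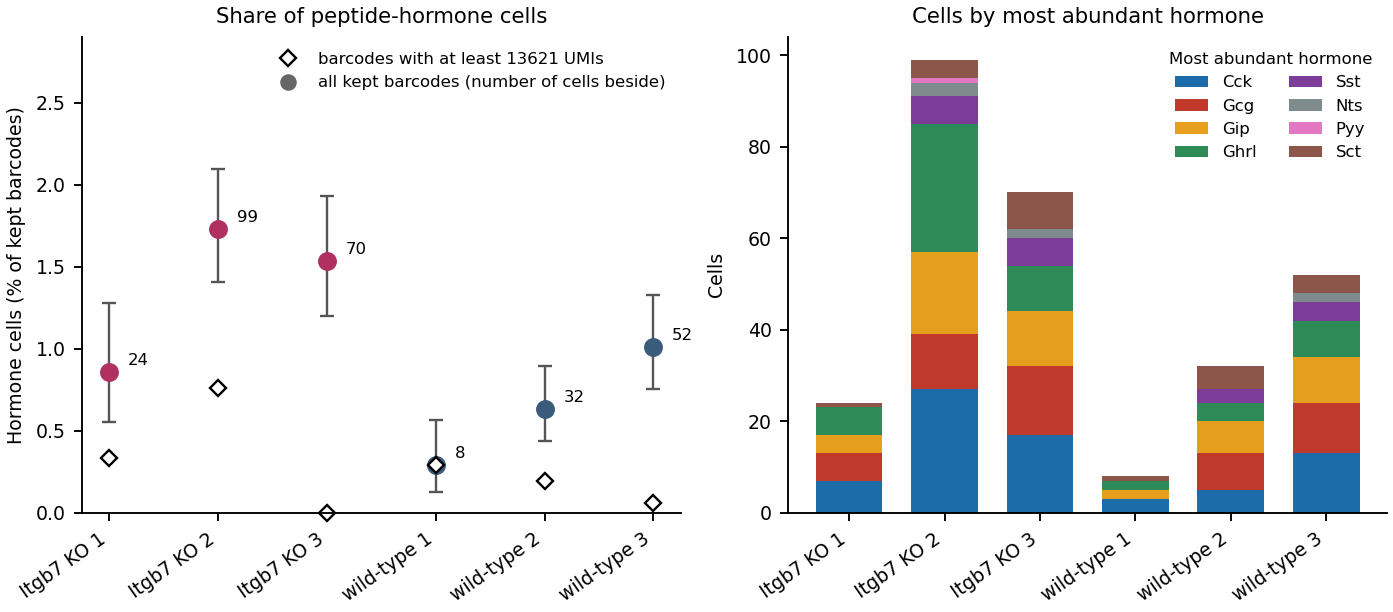
Member barcodes in each library as a percent of barcodes that passed the gene and mitochondrial limits, with exact 95% binomial intervals, at all depths and at a matched UMI minimum (left), and number of members by most abundant hormone (right). At all depths the Itgb7 KO libraries lie between 0.860% and 1.73% and the wild-type libraries between 0.288% and 1.01%, and the groups overlap.

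The limit of 50 cut through a thin range of values. There were 20 members between 50.7 and 93.8 hormone UMIs per 10000 (median 76.6) and 51 barcodes outside between 25.1 and 48.7 (median 31.8). Just inside the limit the summed barcodes had 327 CPM of the granule enzyme gene Cpe and 457 CPM of the islet factor gene Isl1, against 86.1 and 152 CPM just outside. Of the granule protein Chga they had 521 CPM inside and 552 CPM outside. Tph1 was at 0 in 283 members and at 1 UMI in the other 2.

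Most members were dominated by 1 of 5 hormones. By the hormone with most UMIs there were 72 Cck, 58 Ghrl, 53 Gip, 52 Gcg, 23 Sct, 19 Sst and 7 Nts cells, and 1 Pyy cell. Hormone RNA could take most of a cell: the highest sum was 6218 per 10000, in a ghrelin cell, and the median over members was 1132. The leading hormone had a median of 1233 UMIs per 10000 in Gip cells, 1771 in Sst cells, 891 in Gcg cells, 717 in Cck cells and 376 in Ghrl cells. Sct cells were the exception, with a median of 88.3 and a range of 23.1 to 872. In 83 members the leading hormone was under 2 times the next, so for these the name rests on a narrow margin.

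Each leading hormone was found in both genotypes except Pyy. Cck cells numbered 7, 27 and 17 in the Itgb7 KO libraries and 3, 5 and 13 in the wild-type libraries. Ghrl cells numbered 6, 28 and 10 in the Itgb7 KO libraries and 2, 4 and 8 in the wild-type libraries. As a share of all barcodes that passed the limits, Ghrl cells made up 0.215%, 0.489% and 0.219% in the Itgb7 KO libraries, against 0.0721%, 0.0793% and 0.156% in the wild-type libraries. These shares did not overlap, yet the exact permutation p of 0.1 is the smallest possible and became 0.4 after adjustment over the 8 hormones. The difference was 0.205 percentage points, and 0.190 without wild-type replicate 1 (exact permutation p = 0.3).

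Gip cells numbered 4, 18 and 12 in the Itgb7 KO libraries and 2, 7 and 10 in the wild-type libraries. They formed 16.7%, 18.2% and 17.1% of members in the Itgb7 KO libraries, against 25%, 21.9% and 19.2% in the wild-type libraries. The groups did not overlap (exact permutation p = 0.1, adjusted 0.8), and the difference of -4.70 points became -3.22 without wild-type replicate 1. Gcg cells numbered 6, 12 and 15 in the Itgb7 KO libraries and 0, 8 and 11 in the wild-type libraries. Sst cells were at 0, 6 and 6 in the Itgb7 KO libraries and 0, 3 and 4 in the wild-type libraries. A count of 0 allows up to 12.5% of the 24 members of Itgb7 KO replicate 1 and up to 37.5% of the 8 members of wild-type replicate 1.

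Members held most of the Cck RNA of every library, but not most of the Sct RNA of any. Of a library's Cck UMIs, members held 88.5%, 93.2% and 91.0% in the Itgb7 KO libraries, against 66.9%, 92.4% and 86.5% in the wild-type libraries. Of the Sct UMIs they held 16.5%, 47.0% and 39.9% in the Itgb7 KO libraries, against 5.04%, 17.5% and 26.9% in the wild-type libraries. Cck, on chromosome 9 from 121489824 to 121495694 of mm10 (minus strand), summed to 23234, 26496 and 28501 CPM in members of the Itgb7 KO libraries, against 6625, 17462 and 33812 CPM in the wild-type libraries. Ghrl, on chromosome 6 from 113716119 to 113719880 (minus strand), summed to 20841, 33519 and 19634 CPM in the Itgb7 KO libraries, against 4014, 13494 and 20700 CPM in the wild-type libraries. Gip, on chromosome 11 from 96024545 to 96030831 (plus strand), summed to 30925, 33133 and 27389 CPM in the Itgb7 KO libraries, against 9156, 47473 and 33447 CPM in the wild-type libraries. For all 3 hormones the groups overlapped and wild-type replicate 1 was lowest.

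Gcg, on chromosome 2 from 62474530 to 62483650 (minus strand), summed to 18150, 14852 and 19913 CPM in members of the Itgb7 KO libraries, against 1785, 26426 and 23407 CPM in the wild-type libraries. Sst, on chromosome 16 from 23889573 to 23890958 (minus strand), summed to 4.86, 5437 and 9853 CPM in the Itgb7 KO libraries, against 109, 12815 and 6521 CPM in the wild-type libraries. Itgb7 KO replicate 1 and wild-type replicate 1, which had no Sst-led cell, were lowest. Nts, on chromosome 10, was uneven, with 647, 2095 and 1698 CPM in the Itgb7 KO libraries and 3.50, 0 and 2008 CPM in the wild-type libraries. The same hormones were found at low levels in enterocyte barcodes, which should lack them, at 4.28 to 26.2 CPM of Cck, 5.60 to 27.2 CPM of Ghrl, 14.2 to 44.6 CPM of Gip and 1.97 to 7.78 CPM of Sst. Because these levels chose the cells, they are given without a test.

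Many members carried more than 1 hormone. At a level of 50 or more per 10000, 186 members (65.3%) held at least 2 of the 8 hormones and 103 held at least 3. Of the 100 members with Gcg at that level, 94 also had Cck. The overlap recurred in each library: 9 of 9, 29 of 31 and 26 of 27 Gcg-positive members in the Itgb7 KO libraries had Cck, as did 1 of 1, 10 of 11 and 19 of 21 in the wild-type libraries. Of 34 Pyy-positive members 33 had Gcg, and all 12 Nts-positive members had Sct.

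Gip and Ghrl rarely occurred in the same cell. Of the 63 members with Gip at 50 or more and the 114 with Ghrl, 1 cell had both. Among the 53 Gip-led cells 0 reached that level of Ghrl, which allows a share of up to 5.66%, and 17 reached it for Cck. Among the 58 Ghrl-led cells 0 reached it for Gip, which allows up to 5.17%, 7 for Cck and 3 for Gcg. Cck-led cells mixed more, with 35 of 72 positive for Gcg and 27 for Ghrl.

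Most Sst-led cells also held Ghrl. Of 19 Sst-led cells 14 had Ghrl at 50 or more, beside 114 of all 285 members, at 0 of 0, 4 of 6 and 5 of 6 in the Itgb7 KO libraries and 0 of 0, 2 of 3 and 3 of 4 in the wild-type libraries. The summed Ghrl level of Sst-led cells was above that of the other members in Itgb7 KO replicate 3 (50738 against 17881 CPM) and wild-type replicate 2 (49758 against 10908 CPM). It was below that of the other members in Itgb7 KO replicate 2 (13600 against 34292 CPM) and wild-type replicate 3 (9485 against 21677 CPM). None of the 19 reached that level of Cck, Gcg or Sct, and a count of 0 allows up to 15.8%. Which of these pairs could come from 2 cells in 1 droplet was not tested.

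**Figure D2:**
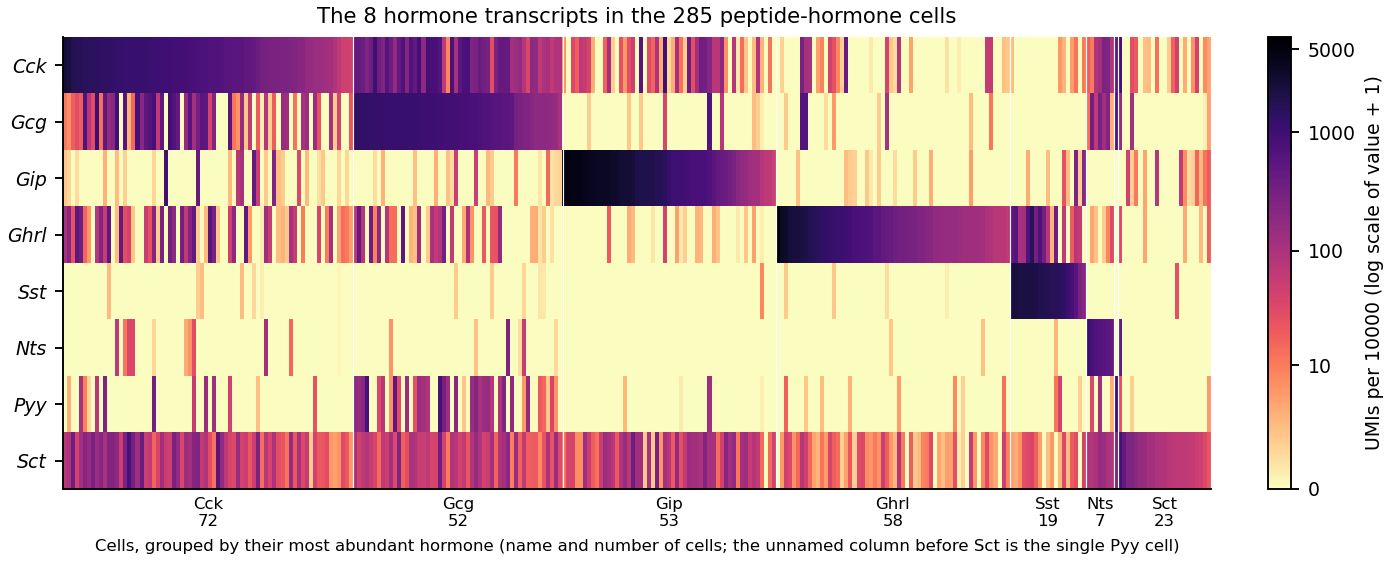
Level of the 8 hormones (rows, UMIs per 10000, log scale) in each of the 285 members (columns), grouped by leading hormone. Gcg-led cells also carry Cck, 14 of 19 Sst-led cells carry Ghrl, and Gip-led and Ghrl-led cells hardly share their hormones.

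The label was checked on endocrine genes that the rule did not use. All 13 of the listed markers (granins, processing enzymes and transcription factors) were higher in members than in all other barcodes, by log2 3.51 for Chga to 10.19 for the granin Scg2. On these genes the label held as endocrine cells, but this contrast cannot tell peptide-hormone cells from enterochromaffin cells, which also hold them. Against enterochromaffin barcodes 7 of the 13 were higher in members and 3 lower, beside 4.21% and 4.61% of all genes tested. The 3 lower were Chga, Chgb and the convertase gene Pcsk1 (log2 -1.06 ± 0.16). Markers of other cell types were lower in members by edgeR for 7 of 7 goblet, 7 of 7 Paneth, 9 of 10 enterocyte and 7 of 7 dividing-cell genes tested, beside 21.4% of all genes tested. Of 6 stem-cell markers 3 were lower, of 7 tuft markers 0 were called in either direction, and of 2 tested immune markers 1 was higher. Wild-type replicate 1 went the other way for the summed markers of stem cells (497 CPM in members against 237 CPM in other barcodes) and dividing cells (717 against 626 CPM). Summed tuft markers were also higher in members there (52.5 against 11.3 CPM) and in wild-type replicate 2 (17.4 against 8.49 CPM). Mast-cell markers summed to 16.2 to 19.5 CPM in members of the Itgb7 KO libraries and 7.0 to 17.4 CPM in the wild-type libraries. The sums exceeded those of the other barcodes in 5 of 6 libraries. In members of every library 4 of the 5 mast-cell genes were at 0, so each sum is 1 gene. Immune markers summed to 0 to 9.72 CPM in members of the Itgb7 KO libraries and 0 to 13.1 CPM in those of the wild-type libraries. Paneth markers ranged more widely, at 5782, 399 and 616 CPM in the Itgb7 KO libraries and 5680, 205 and 485 CPM in the wild-type libraries, high in both libraries numbered 1. Their part in the results was not tested.

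Across the transcriptome 2581 of 13078 genes were higher in members than in other barcodes (19.7%) and 2799 lower (21.4%), by edgeR's quasi-likelihood test with library as a block and a Benjamini-Hochberg adjusted p under 0.05. Since the cells were chosen by RNA from the same barcodes, this contrast and those with other endocrine barcodes are read as a description. Scg2 averaged 579 ± 317 CPM in members against 0.402 CPM in other barcodes (SD, n = 6 libraries), a log2 difference of 10.19 ± 0.21 (SE). Cpe, the carboxypeptidase that trims prohormones, averaged 1169 ± 428 CPM in members against 3.48 CPM in other barcodes (log2 8.17 ± 0.23). Of the tested granin and granule genes 13 of 15 were higher in members and 0 lower, and of the processing enzymes 8 of 8.

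Transcription factors of the endocrine lineage were likewise high. Isl1, a LIM factor of endocrine cells, had 545, 886 and 745 CPM in members of the Itgb7 KO libraries and 297, 1244 and 904 CPM in those of the wild-type libraries, against a mean of 2.00 CPM in other barcodes (log2 8.27 ± 0.23). Etv1 (an ETS factor) was higher by 9.59 ± 0.20 and Pax6 by 8.15 ± 0.18 on the log2 scale. In all 26 of 30 tested endocrine factors were higher in members and 1, the intestinal factor Cdx1, was lower.

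Receptors through which these cells sense their surroundings followed. Of 17 tested nutrient and ligand receptors 12 were higher in members and 0 lower. Ffar1, a receptor for long-chain fatty acids, had 105, 105 and 68.1 CPM in members of the Itgb7 KO libraries and 52.5, 109 and 205 CPM in those of the wild-type libraries, against 0.114 CPM on average in other barcodes (log2 9.57 ± 0.31). Gpr119, a receptor for fatty-acid amides, averaged 61.0 CPM in members against 0.0403 CPM in other barcodes (log2 9.89 ± 0.47). Abcc8, the sulfonylurea-receptor subunit of the KATP channel, averaged 75.5 CPM in members and 0.222 CPM in other barcodes.

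Against the 156 enterochromaffin barcodes (at least 2 Tph1 UMIs), 231 of 5491 genes were higher in members (4.21%) and 253 lower (4.61%). Members had more Isl1 (log2 7.99 ± 0.31, 770 CPM against 1.52 CPM) and more Scg2 (6.06 ± 0.32). They also had more Rbp4, which encodes the plasma retinol carrier (6.07 ± 0.24, 904 CPM against 12.7 CPM), and more of the calcium-binding Scgn (6.04 ± 0.25). Abcc8 averaged 75.5 CPM in members and was at 0 in the enterochromaffin sums of all 6 libraries.

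Enterochromaffin barcodes held more of the classical granins. Chga averaged 416 CPM in members and 4891 CPM in enterochromaffin barcodes (log2 -3.38 ± 0.12), and Chgb 3926 CPM in members and 26941 CPM in enterochromaffin barcodes (-2.65 ± 0.13). Tac1, the substance P precursor, averaged 70.6 CPM in members and 5118 CPM in enterochromaffin barcodes (-6.30 ± 0.22), and the factor Lmx1a 3.16 CPM in members and 178 CPM in enterochromaffin barcodes (-5.60 ± 0.34). Neurod1, a pan-endocrine factor, averaged 461 CPM in members and 492 CPM in enterochromaffin barcodes (0.09 ± 0.14, not called). Of 30 endocrine factors 9 were higher in members, Etv1 and Pax6 among them, and 8 lower, Fev and Mnx1 among them.

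Against the 283 Neurog3 progenitor barcodes (at least 2 Neurog3 UMIs, neither members nor enterochromaffin), 994 of 6810 genes were higher in members (14.6%) and 914 lower (13.4%). Prohormone processing separated them: 8 of 8 tested enzymes were higher in members, with Pam, which amidates peptides, at 5.85 ± 0.23 and Cpe at 5.43 ± 0.23 on the log2 scale. Of 12 tested granule genes 10 were higher and 0 lower. The largest falls in members included Paneth-cell genes, with Defa5 at -5.27 ± 0.79, Mptx2 at -5.05 ± 1.03 and Ang4 at -4.10 ± 0.43. The Paneth markers Defa24 (-0.08 ± 0.53) and Itln1 (0.01 ± 0.70) were not called. How much of this is free RNA in progenitor barcodes was not tested. Falls were smaller for the progenitor gene Sox4, at 325 CPM in members and 1905 CPM in progenitor barcodes (-2.51 ± 0.19). The Notch ligand Dll1 averaged 22.5 CPM in members and 147 CPM in progenitor barcodes (-2.75 ± 0.19). Insm1, a factor of early endocrine cells, was lower in members by a small amount (-0.50 ± 0.18), and Isl1 higher (3.46 ± 0.28). Without Itgb7 KO replicate 2 the number lower was 536. There were 22 members with at least 2 Neurog3 UMIs, and 18 of these were Ghrl cells.

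**Figure D3:**
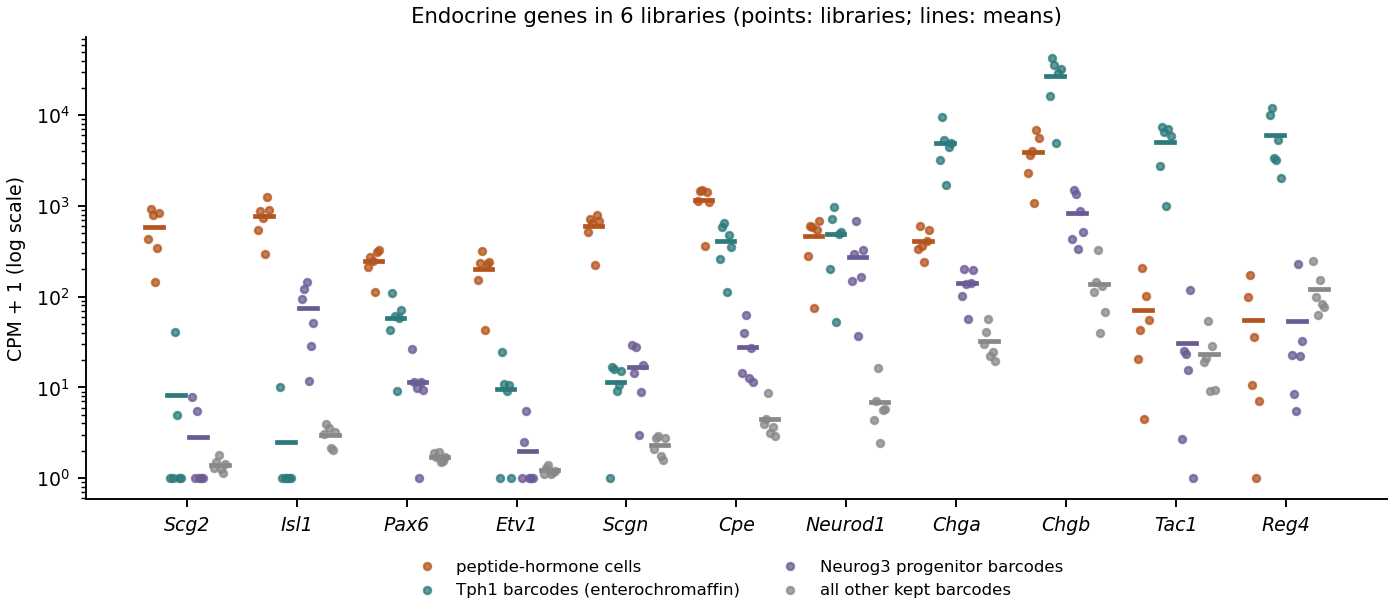
Level (CPM + 1, log scale) of endocrine genes in members, enterochromaffin barcodes, Neurog3 progenitor barcodes and all other barcodes, with 1 point per library and a line at the mean. Members stand high in Isl1, Scg2 and Cpe, enterochromaffin barcodes in Chga and Chgb.

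The hormone groups differed in more than their hormones. Each was compared with the other members of the same library, in libraries with at least 5 cells of the group, or at least 3 for Sst and Sct, a limit chosen after seeing the data. These contrasts use genes other than the 8 hormones, but the cells were sorted by RNA of the same barcodes, so they too are read as a description.

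Somatostatin cells had far more Hhex and Iapp than the other members. Of 2789 genes 39 were higher in Sst cells (1.4%) and 66 lower (2.37%). Hhex, the homeobox factor of islet delta cells, had 1776 and 911 CPM in Sst cells of Itgb7 KO replicates 2 and 3 and 1831 and 866 CPM in those of wild-type replicates 2 and 3, while the other members of these libraries had 3.36, 17.1, 41.9 and 0 CPM (log2 6.67 ± 0.40). Iapp, the islet amyloid peptide, had 3335 and 9662 CPM in Sst cells of Itgb7 KO replicates 2 and 3 and 9742 and 4818 CPM in those of wild-type replicates 2 and 3, while other members had at most 6.85 CPM (9.96 ± 0.49). In each of these libraries the Sst cells stood far above their neighbours. Wild-type replicate 1 had no Sst-led cell and was not in this contrast, but its members had 133 CPM of Iapp. Pooled over all libraries, Iapp was at 103 CPM in Gip cells and 6302 CPM in Sst cells.

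Other genes of the hormone cells were lower or undetected in Sst cells. Ffar1 was at 0 in Sst cells of all 4 libraries, while the other members had 71.9 to 223 CPM. Sst cells had less Scg2 (log2 -3.79 ± 0.50), Pam (-3.42 ± 0.61) and Etv1 (-3.51 ± 0.72), and more of the potassium channel gene Kcnk2, at 173 and 243 CPM in Itgb7 KO replicates 2 and 3 and at least 75.3 CPM in wild-type replicates 2 and 3, with 0 in the other members. These values rest on 3 to 6 cells a library. Kcnk2 had 4 and 4 UMIs in Sst cells of the Itgb7 KO libraries and 6 and 2 UMIs in those of the wild-type libraries. At so few cells, a level of 0 for Ffar1 does not by itself show that it was absent.

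Ghrl cells had more Mboat4 and Neurog3 than the other members. Of 4214 genes 99 were higher in Ghrl cells (2.35%) and 161 lower (3.82%). Mboat4, the acyltransferase that activates ghrelin, had 326, 373 and 55.9 CPM in Ghrl cells of the Itgb7 KO libraries and 580 CPM in those of wild-type replicate 3, against 33.9, 57.5, 27.5 and 31.9 CPM in other members of the same libraries (log2 3.0 ± 0.29). Neurog3 was higher too (3.85 ± 0.42), with at least 2 UMIs in 18 of the 58 Ghrl cells, as were Sox4 (1.61 ± 0.19) and Isl1 (0.67 ± 0.19). Apln, the apelin precursor, was at 34.3 to 93.2 CPM in Ghrl cells and at 0 in all other members of the 4 libraries. Without Itgb7 KO replicate 2 there were 48 genes higher and 91 lower, and without wild-type replicate 3 there were 58 higher.

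Granin genes differed in direction in Ghrl cells. Chgb had 137, 644 and 149 CPM in Ghrl cells of the Itgb7 KO libraries and 340 CPM in those of wild-type replicate 3, against 3177, 4716, 4885 and 6563 CPM in other members (log2 -3.97 ± 0.26), so every library showed the same order. Scg2 was lower as well (-2.61 ± 0.24), while Chga was higher (1.32 ± 0.18). Among fatty-acid receptors Ffar2, for short chains, was higher (1.84 ± 0.21) and Ffar1 lower (-3.20 ± 0.46).

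Fabp5, Rbp2 and Cnr1 were higher in Gip cells than in the other members. Of 3175 genes 100 were higher in Gip cells (3.15%) and 105 lower (3.31%). Fabp5, a fatty-acid binding protein, had 4526 and 4012 CPM in Gip cells of Itgb7 KO replicates 2 and 3 and 8301 and 7913 CPM in those of wild-type replicates 2 and 3, against 485, 494, 1610 and 558 CPM in other members (log2 3.25 ± 0.21). Rbp2, the cellular retinol-binding protein of the gut, had 4191 and 4782 CPM in Gip cells of Itgb7 KO replicates 2 and 3 and 4735 and 4846 CPM in those of wild-type replicates 2 and 3, against 598, 502, 833 and 614 CPM in other members (3.03 ± 0.18). The cannabinoid receptor gene Cnr1 was higher by 4.50 ± 0.61. Without Itgb7 KO replicate 2 there were 60 genes higher and 51 lower, and without wild-type replicate 3 there were 53 lower.

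Gip cells also differed in factors and receptors. Rfx6 (log2 1.53 ± 0.36) and Insm1 (0.58 ± 0.17) were higher in Gip cells, and Etv1 (-2.42 ± 0.37), Prox1 (-2.70 ± 0.67) and Neurod1 (-0.69 ± 0.18) lower. Ffar2 was lower (-5.00 ± 0.52), as was Chga (-1.98 ± 0.23), while Chgb (0.71 ± 0.21) and Pam (1.11 ± 0.21) were higher.

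Fewer genes were called for Cck and Gcg cells. For Cck cells 27 of 3783 genes were higher (0.714%) and 43 lower (1.14%). Scg2 had 576, 1909 and 1802 CPM in Cck cells of the Itgb7 KO libraries and 403 and 1707 CPM in those of wild-type replicates 2 and 3, against 371, 527, 495, 324 and 571 CPM in other members (log2 1.35 ± 0.18). Onecut3 (2.25 ± 0.54), Ffar1 (1.10 ± 0.25), the G-protein regulator Rgs2 (2.60 ± 0.37) and Ambp (2.36 ± 0.32) were higher as well. In wild-type replicate 2, however, Rgs2 was at 0 in Cck cells and 43.2 CPM in other members, and Ambp at 44.8 and 43.2 CPM. Neither was particular to Cck cells, nor were Scg2 and Ffar1. Pooled over libraries, Ambp was at 319 CPM in Sst cells and 211 CPM in Cck cells. Rgs2 was at 270 CPM in the 7 Nts cells and 151 CPM in Cck cells. Scg2 was at 1067 CPM in Gcg cells and 1162 CPM in Cck cells. Ffar1 was at 230 CPM in Gcg cells, 236 CPM in Nts cells and 175 CPM in Cck cells. The number higher was 10 without Itgb7 KO replicate 2, 15 without Itgb7 KO replicate 3 and 14 without wild-type replicate 3, and the number lower 24 without Itgb7 KO replicate 2.

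For Gcg cells 24 of 2964 genes were higher (0.81%) and 27 lower (0.911%). Etv1 had 417, 470 and 574 CPM in Gcg cells of the Itgb7 KO libraries and 725 and 394 CPM in those of wild-type replicates 2 and 3, against 88.0, 192, 230, 84.6 and 194 CPM in other members (log2 1.70 ± 0.25). Ffar1 (1.47 ± 0.28), the peptide transporter Slc15a1 (1.97 ± 0.42) and the serine protease Fap (3.06 ± 0.59) were higher too. The peptidase gene Naaladl1 was higher as well (2.49 ± 0.55). Neither Ffar1 nor Naaladl1 was particular to Gcg cells. Pooled over libraries, Naaladl1 was at 146 CPM in Gcg cells and 304 CPM in the few Nts cells, and Ffar1 at 230 and 236 CPM. The chemokine genes Ccl9 (2.66 ± 0.58) and Ccl6 (2.58 ± 0.53) were called higher, but unevenly over libraries. Ccl9 had 895 and 339 CPM in Gcg cells of Itgb7 KO replicates 1 and 2, against 21.2 and 58.8 CPM in other members. It was lower in Gcg cells of Itgb7 KO replicate 3 (12.7 against 17.4 CPM) and wild-type replicates 2 (19.1 against 28.2 CPM) and 3 (27.2 against 42.6 CPM). Ccl6 had 797 and 727 CPM in Gcg cells of Itgb7 KO replicates 1 and 3, but 54.6 against 56.9 CPM in Itgb7 KO replicate 2. Itln1, on the list of Paneth markers, had 5821, 76.5 and 943 CPM in Gcg cells of the Itgb7 KO libraries and 38.2 and 109 CPM in those of wild-type replicates 2 and 3, against 316, 135, 21.7, 11.3 and 62.0 CPM in other members (2.71 ± 0.62). Its call was lost with DESeq2 and without Itgb7 KO replicate 1 or 3 or wild-type replicate 2 or 3, and none of the other 5 tested Paneth markers was called. Sox4 was lower (-1.52 ± 0.21). The number higher was 15 without Itgb7 KO replicate 2, 12 without wild-type replicate 2 and 14 without wild-type replicate 3, and the number lower 44 without Itgb7 KO replicate 1.

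Tac1 and Chgb were higher in Sct cells than in the other members, the 2 called of 3 tested enterochromaffin markers. Of 2763 genes 9 were higher in Sct cells (0.326%) and 26 lower (0.941%). Tac1 had 792 and 1672 CPM in Sct cells of Itgb7 KO replicates 2 and 3 and 643 and 458 CPM in those of wild-type replicates 2 and 3, against 21.6, 32.6, 15.1 and 13.3 CPM in other members (log2 5.07 ± 0.34). Chgb was higher by 2.13 ± 0.34 and Scg2 lower by a log2 difference of -2.23 ± 0.36. Isl1, low in enterochromaffin barcodes, had 1644 and 898 CPM in Sct cells of Itgb7 KO replicates 2 and 3. It had 2251 and 196 CPM in those of wild-type replicates 2 and 3. Reg4, high in enterochromaffin barcodes, had 6089 CPM in Sct cells of Itgb7 KO replicate 2 but at most 31.0 CPM in the other libraries. Both members with 1 Tph1 UMI were Sct cells. The relation of Sct cells to enterochromaffin cells was not tested. Of the 23 Sct cells 10 had a hormone sum under 100 per 10000, near the limit of the rule.

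**Figure D4:**
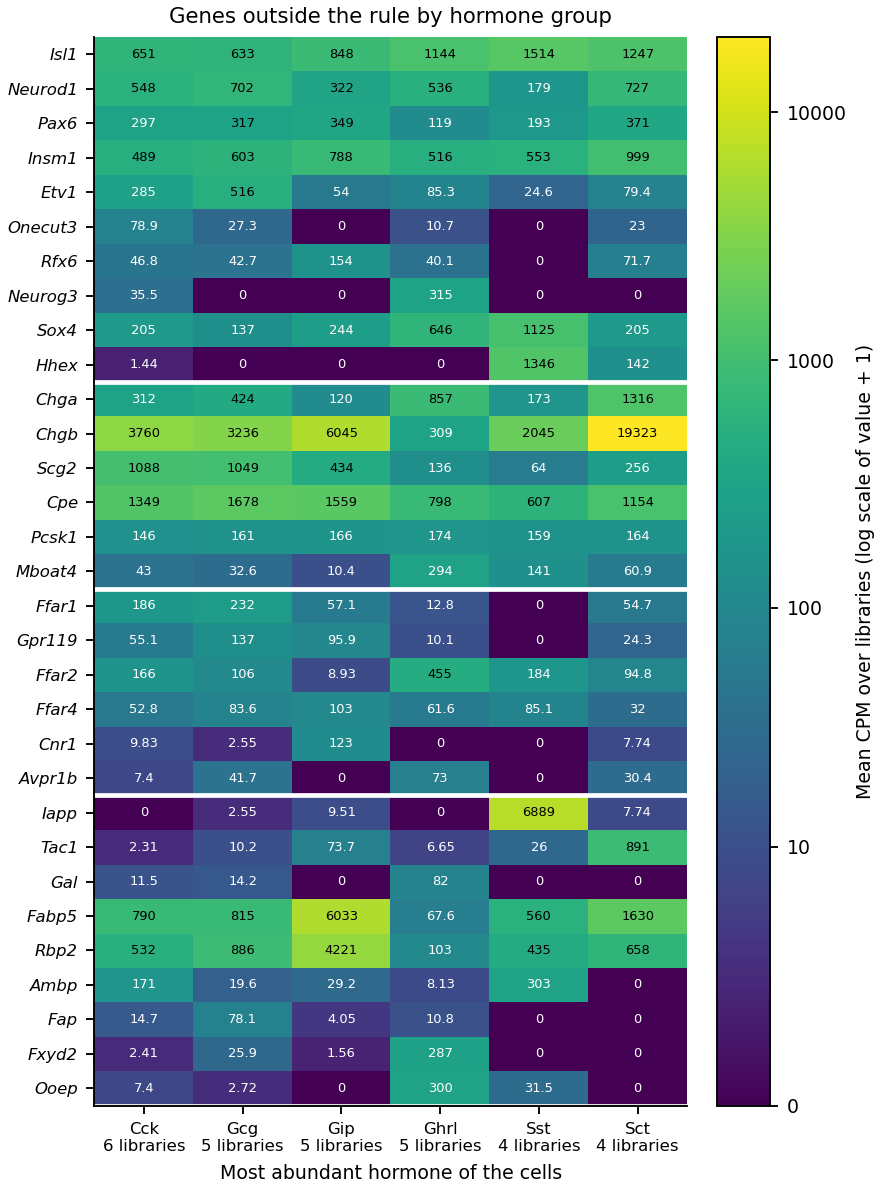
Mean level (CPM over libraries with at least 3 cells of the group, each library weighted equally) of named genes in cells led by each hormone. Among the groups shown, Hhex and Iapp are highest in Sst cells, Mboat4 and Neurog3 in Ghrl cells, Fabp5 and Rbp2 in Gip cells, and Tac1 in Sct cells.

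Within members no gene passed the adjusted threshold between genotypes. Of 4503 genes tested, 0 were higher in the Itgb7 KO libraries and 0 lower (0% each), with the lowest edgeR adjusted p at 0.9998, and DESeq2 also gave 0. At an unadjusted p under 0.05 edgeR gave 66 genes and DESeq2 20. The groups did not overlap for 127 genes higher in the Itgb7 KO libraries (2.82%) and 128 lower (2.84%).

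The endocrine gene groups gave no call in either direction. Granule genes had a median log2 difference of -0.01 over 11 tested, processing enzymes 0.23 over 7, transcription factors 0.06 over 25 and receptors -0.09 over 4, beside -0.02 over all genes tested. Isl1 averaged 725 ± 171 CPM in the Itgb7 KO libraries and 815 ± 480 CPM in the wild-type libraries (SD, n = 3 each; log2 -0.17 ± 0.43). Chga averaged 434 ± 148 CPM in the Itgb7 KO libraries and 397 ± 149 CPM in the wild-type libraries (0.11 ± 0.33). The range over libraries exceeded both differences.

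Among single genes that did not overlap, Hspa1a, an inducible heat-shock chaperone, had 58.4, 45.3 and 169 CPM in members of the Itgb7 KO libraries, against 10.5, 21.8 and 12.1 CPM in those of the wild-type libraries (log2 2.54 ± 0.62, edgeR adjusted p = 0.9998). Its partner Dnajb1 had 114, 158 and 282 CPM in the Itgb7 KO libraries, against 66.5, 74.0 and 99.5 CPM in the wild-type libraries (1.14 ± 0.34, edgeR adjusted p = 0.9998). Cln6, an endoplasmic reticulum protein gene, had 12.2, 25.9 and 22.7 CPM in the Itgb7 KO libraries, against 38.5, 60.9 and 66.3 CPM in the wild-type libraries (-1.44 ± 0.37, edgeR adjusted p = 0.9998). None of these was called, and Hspa1a shares reads with its near-identical copy Hspa1b, so its level is uncertain.

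The MHC class I list, which includes antigen-processing genes, was higher in sum in every Itgb7 KO library than in any wild-type library, without a call. It summed to 2498, 2462 and 2064 CPM in members of the Itgb7 KO libraries, against 1722, 1875 and 1836 CPM in those of the wild-type libraries. The sums did not overlap, and 0 of 9 tested genes were called, with a median log2 difference of 0.35 beside -0.02 over all genes tested. Of all gene lists summed, only this one and the interferon-response list did not overlap. Each had an exact permutation p of 0.1, the smallest possible and not adjusted over the lists. With many lists summed, some such separations can occur without any difference between genotypes. In all other barcodes the sums were 2972, 2967 and 2732 CPM in the Itgb7 KO libraries and 2027, 2202 and 2166 CPM in the wild-type libraries, so the order was the same outside members. Interferon-response genes summed to 735, 422 and 402 CPM in members of the Itgb7 KO libraries, against 297, 366 and 401 CPM in those of the wild-type libraries, where the lowest Itgb7 KO library barely exceeded the highest wild-type library. Of these genes 4 were tested and 0 called.

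The call for Cd74, the invariant chain of MHC class II, depended on 1 library. It had 414, 212 and 272 CPM in members of the Itgb7 KO libraries, against 371, 8.70 and 42.2 CPM in those of the wild-type libraries (log2 0.98 ± 0.85, edgeR adjusted p = 0.9998). Wild-type replicate 1 lay within the Itgb7 KO range. Without wild-type replicate 1, Cd74 was higher in the Itgb7 KO libraries by 3.48 ± 0.50 (edgeR adjusted p = 0.0458). Leaving out both libraries numbered 1, a setting chosen after seeing the data, gave 3.06 ± 0.38 (edgeR adjusted p = 0.00218). In all other barcodes Cd74 had 572, 574 and 553 CPM in the Itgb7 KO libraries and 250, 47.1 and 173 CPM in the wild-type libraries. How much Cd74 in members is free RNA from other barcodes was not tested.

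**Figure D5:**
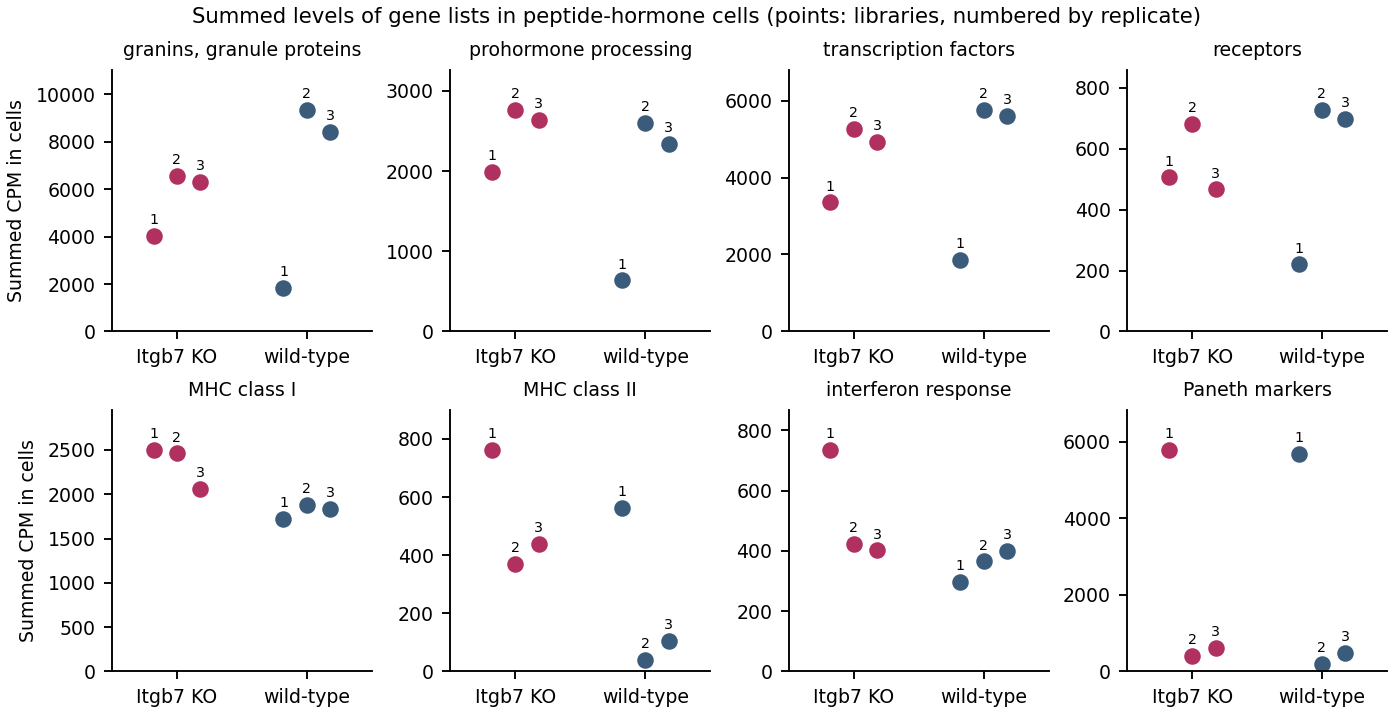
Summed level (CPM) of gene lists in members of each library. MHC class I sums lie between 2064 and 2498 CPM in the Itgb7 KO libraries and between 1722 and 1875 CPM in the wild-type libraries, while granin, processing enzyme and transcription factor sums overlap. For MHC class I the exact permutation p was 0.1, the smallest possible.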

How the data were processed

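Single-cell libraries were made with the Chromium 3′ version 2 kit and sequenced on a HiSeq Xten, per the labels' protocols. The submitters' processing notes name bcl2fastq 2.17.1.14, Cell Ranger 2.1.1, Seurat and mm10, with no further settings. The deposited matrices hold UMI counts per gene and barcode, as whole numbers that are not normalized.

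Groups came from the genotype label, with 3 libraries each. Total UMIs per library were 28475253 to 76133693, and 229814 to 618508 in members. Member counts were summed per library, since cells are not replicates. Sums were tested with edgeR 4.0.16 (R 4.3.3; TMM, filterByExpr, quasi-likelihood test, Benjamini-Hochberg at 0.05), with DESeq2 1.42.0 as an alternative; errors of log2 differences were derived from the F statistic. Library was a block in contrasts within libraries. Shares were tested by exact two-sided permutation over libraries. CPM is per 1000000 UMIs of the summed barcodes. Enterocyte barcodes were those in which 5 enterocyte genes together reached 100 UMIs per 10000. Scrublet (scanpy 1.11.5) scored doublets, and the highest-scoring 0.8% for each 1000 barcodes of a library were taken as likely doublets. The code was tested on simulated data. Gene positions were matched for 27645 of 27998 identifiers (98.7%).

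In members, deviations of same-numbered libraries from their group means correlated at 0.495, 0.290 and 0.156. Pairs with unlike numbers reached 0.286 (Itgb7 KO 2 with wild-type 3) and 0.252 (Itgb7 KO 3 with wild-type 2). The labels state no pairing, and these values do not establish one. The main test between genotypes therefore had no block, and the replicate block was an alternative that changed no call. Named genes were taken from those with the largest folds among the called, with genes that did not overlap where none was called, plus called members of the gene lists. The members and lists were chosen with earlier results of these data known. Alternatives were other hormone, Tph1, mitochondrial and depth limits, thinning, doublet removal, no filter on low counts, DESeq2, the replicate block, and leaving out each library.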

Additional observations from a re-analysis of the deposited data

How the results depend on the processing

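The difference in member share kept its direction under every alternative run, at 0.138 to 0.986 percentage points, and was 0.551 to 0.986 when 1 library was left out. With the replicate block, which pairs same-numbered libraries, it was 0.729 points (exact permutation p = 0.25, the smallest possible), and the block gave 0 genes in either direction between genotypes.

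Shares of hormone groups were less stable. The difference of the Cck share of members ranged from -4.34 to 6.60 points with 1 library left out, being -0.262 without Itgb7 KO replicate 1 and -4.34 without wild-type replicate 2, and was -1.89 at a hormone limit of 100 per 10000. For Gcg it ranged from -3.56 (without wild-type replicate 1) to 8.94 and was -2.67 where the first hormone had to be at least 2 times the second. For Sst it ranged from -3.66 to 1.63, being 1.63 without Itgb7 KO replicate 1, 1.03 without wild-type replicate 2, 0.190 without wild-type replicate 3 and 0.00519 without the highest Scrublet scores. For Sct of all barcodes it ranged from -0.0182 (without Itgb7 KO replicate 3) to 0.0515 and was -0.00653 at the limit of 100. The causes were not tested.

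Between genotypes the number of genes higher was 3 without a filter on low counts, 1 with groups of the libraries' serial numbers in the deposited names as a term, 1 without both libraries numbered 1, and 0 to 1 when a library was left out. The number lower was 1 without the filter and 1 without both libraries. DESeq2 gave fewer calls: 119 higher and 158 lower against enterochromaffin barcodes, 518 lower against progenitors, 13 and 17 for Cck, 14 and 16 for Gcg, 44 and 40 for Gip, 44 and 75 for Ghrl. Without the filter there were 379 higher against enterochromaffin barcodes, 102, 98 and 159 lower for Cck, Gcg and Gip, and 62 higher for Ghrl. Without the highest Scrublet scores 28 were lower for Cck, and 33 higher and 32 lower for Gip. With 1 library left out the ranges were 536 to 1087 lower against progenitors, 10 to 30 higher and 24 to 44 lower for Cck, 12 to 28 and 18 to 44 for Gcg, 60 to 92 and 51 to 82 for Gip, and 48 to 97 and 91 to 143 for Ghrl. Depth limits low genes: the members of a library held 229814 to 618508 UMIs.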

Other observations

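Immediate early and dissociation-response genes placed members between the other endocrine barcodes. Of 17 tested, 0 were higher and 11 lower in members than in enterochromaffin barcodes, beside 4.21% and 4.61% of all genes tested, with Jun at log2 -1.10 ± 0.11 (SE) and Fos at -0.82 ± 0.12. Of 16 tested, 11 were higher and 0 lower in members than in Neurog3 progenitor barcodes, beside 14.6% and 13.4% of all genes tested, with Jun at 1.10 ± 0.17 and Atf3 at 1.57 ± 0.21.

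Peptide genes outside the 8 hormones were also higher in members than in other barcodes for 8 of 10 tested, beside 19.7% of all genes. Gast, the gastrin precursor, was higher by log2 7.66 ± 0.58 and Gal, the galanin precursor, by 7.21 ± 0.49. Of 7 tested MHC class II genes 6 were lower in members, beside 21.4% of all genes, with Cd74 at -1.10 ± 0.20. Wild-type replicate 1 went the other way, with a class II sum of 563 CPM in members and 406 CPM in other barcodes.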
